A study of Mus musculus with 9 samples.

Results

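The comparison described here set skin treated with imiquimod, called IMQ, against mock skin, over 3 arrays of each group in a series of 9. Its members were all genes with a probe of 1 gene symbol: 20377 of 26423 probes had one, and they made 17742 genes. All mice were labelled female BALB/c. Mock mice had Vaseline cream on the shaved back for 7 days, and IMQ mice had imiquimod there for the same 7 days. The third group had imiquimod and, by mouth, 100 mg/kg of vanillin, and its 3 arrays entered the fit of the spread but not this comparison. The labels state neither the ages of the mice, the imiquimod dose, the base of its cream nor that each array came from its own mouse, so each p-value reflects array-to-array spread alone, which could be technical.

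Imiquimod is a small molecule that activates toll-like receptor 7, an endosomal receptor for single-stranded RNA that signals through MyD88 and IRAK kinases to cytokine and interferon genes. On mouse skin it gives a thick, scaly and inflamed epidermis that is used as a model of psoriasis, and cornified envelope, keratin, S100 and IL-36 genes are the usual readouts. The results below concern the other genes: lipids, proteases, junctions, growth factors, metabolism, the receptor's own pathway and the interferon response.

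The deposited values were probe intensities already equalised between arrays, with array medians from 629 to 631, so a change of total signal could not be seen. Levels are given as log2 intensity, and differences as IMQ minus mock in log2 units with the standard error (SE) of the fit. A gene was called at an adjusted p under 0.05 in limma, with Benjamini-Hochberg adjustment over all 26423 probes, and was represented by its brightest probe. On the source of the RNA the labels disagree: the tissue field gives skin, and the extraction field gives muscle. Skeletal muscle markers had a median intensity percentile of 98.3 among all probes, and spinous and granular keratinocyte markers one of 99.6, so transcripts of both tissues were bright. Correlations between arrays across probes were 0.989 to 0.992 within mock, 0.992 to 0.996 within IMQ and 0.952 to 0.966 between the groups. The median SD of a probe was 0.158 in mock and 0.0792 in IMQ. Among the brightest 2643 probes these were 0.156 and 0.034. The fit takes a common spread per probe over the groups, so each SE averages unlike spreads.

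Over all genes, 9919 (55.9%) were called, 4311 (24.3%) higher and 5608 (31.6%) lower in IMQ skin, and the median difference was -0.06. The groups of 3 arrays did not overlap for 12422 genes (70.0%). Called rises of at least 2-fold numbered 1241 (6.99%), and falls of that size 1117 (6.3%). At 4-fold or more, with no overlap, 193 genes (1.09%) rose and 47 (0.265%) fell. The share called higher ran from 12% among the dimmest 2643 probes to 28.4% among the 2642 probes with mean levels of 10.19 to 11.12, and the share called lower from 15.9% to 37.0% in the same classes. Counts in a group of genes are read against these shares, and members counted in neither direction were not called.

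**Figure D1:**
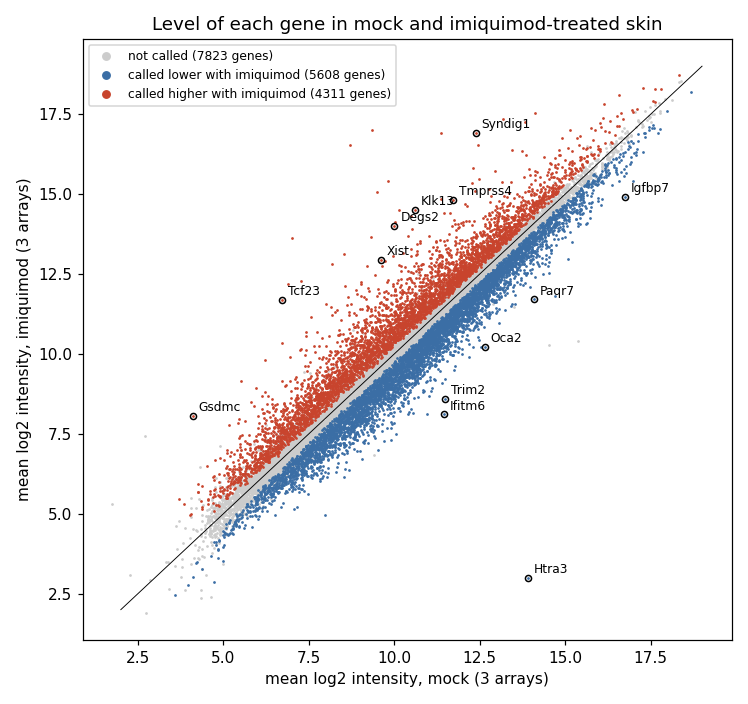
Mean log2 intensity of each of the 17742 genes in mock (x axis) and IMQ skin (y axis), 3 arrays each, with called genes coloured and the diagonal marking equal levels. The 4311 called rises lie above the diagonal and the 5608 called falls below it. Htra3 stands alone at the bottom right with IMQ values of 2.80 to 3.42.

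The usual psoriasis genes, set aside by symbol, also took in cytokines such as those of the IL-1, IL-17 and IL-23 families, chemokines, defensins and the serpins Serpinb3 and Serpinb12. Predicted genes were set aside too, as were genes whose brighter group mean lay below the all-probe median, 9.30, or whose dimmer one lay below the 5th percentile, 5.49. The genes kept also had to be called, with no overlap between the 3 IMQ and the 3 mock arrays. Among the genes left, the largest rise was that of Tcf23, a basic helix-loop-helix factor. It read 7.01, 6.12 and 7.00 on the mock arrays and 11.69, 11.74 and 11.63 on the IMQ arrays. The groups stood far apart, at a difference of 4.98 ± 0.22 (SE, adjusted p = 1.31e-06), or 31.5-fold. Syndig1, a transmembrane protein known from synapses, was among the brightest: it read 12.63, 12.31 and 12.19 on the mock arrays and 16.91, 16.94 and 16.88 on the IMQ arrays, a difference of 4.53 ± 0.13 (SE, adjusted p = 1.17e-07). Orai2, of the family of store-operated calcium channel subunits, read 9.77, 10.12 and 10.20 on the mock arrays and 14.15, 14.08 and 14.15 on the IMQ arrays, a difference of 4.10 ± 0.12 (SE, adjusted p = 1.18e-07). The 3 IMQ arrays of each of these genes lay close together. They lay above every mock array, as the choice of genes requires. The kallikrein proteases Klk13 and Klk9, of the family that sheds corneocytes, rose by 3.92 ± 0.14 and 3.52 ± 0.08. Slc5a1, the sodium-coupled glucose transporter SGLT1, rose by 3.53 ± 0.12 from mock levels of 9.21 ± 0.02 (SD, n = 3 arrays). Fetub, a cystatin-like plasma protein, rose by 3.31 ± 0.10, and Bcl2l15, of the Bcl-2 family, by 3.57 ± 0.11. For Fetub and Bcl2l15 the dimmer probe was also called higher, but at 0.74 and 0.66 only.

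Xist, the noncoding RNA that coats the inactive X chromosome, read 9.71, 9.56 and 9.55 on the mock arrays and 12.97, 13 and 12.88 on the IMQ arrays, a difference of 3.34 ± 0.08 (SE, adjusted p = 5.15e-08). Both groups were labelled female, and the IMQ arrays were 10.1-fold brighter than the mock arrays. That the groups did not overlap was required by the choice of genes. The 3 arrays of the vanillin group read 13.17 on average, close to IMQ. Of the X-linked genes measured, 177 of 689 were called higher (25.7%) and 179 lower (26.0%), beside 24.3% and 31.6% over all genes. Kdm5d was the only measured gene placed on the Y chromosome, at the dim intensity percentile of 29.3, and it read 6.85 to 7.59 in mock and 7.84 to 7.96 in IMQ skin. It was called higher, at 0.66 ± 0.21 (SE, adjusted p = 0.0246). Tsix, also dim at percentile 26.0, was called lower, at -0.46 ± 0.12 (SE, adjusted p = 0.0126). The cause of the Xist difference was not tested.

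The 20 largest rises held genes whose mock arrays were tight and genes whose mock arrays were spread. For 9 of them (Hypk, Brwd3, Olfr1499, Otulin, Unc93a, Laptm4b, Chfr, Gfod1 and Tcf20) the mock SD was above 0.35 and the vanillin group read lower than IMQ at the same threshold, and in 7 of these 9 the lowest mock array was replicate 1. Over all 20 rises, the mock SD was above 0.35 in 10 and the vanillin group was called lower than IMQ in 14. Mock replicate 1 was the lowest mock array in 11 of the 20. The same shares over all genes were not counted, so these 9 are not set apart as a class. Hypk, a partner of the N-terminal acetyltransferase NatA, read 10.71, 8.98 and 11.76 on the mock arrays and 14.20, 14.33 and 14.37 on the IMQ arrays. The IMQ arrays were all above the mock arrays, as the choice of genes requires. The mock arrays differed more among themselves than in any other gene of the 20, with an SD of 1.41. The difference of 3.82 ± 0.56 (SE, adjusted p = 0.000569) became 3.06 without mock replicate 2 and 4.46 without mock replicate 3. Otulin, a deubiquitinase of linear ubiquitin chains, read 7.01, 7.63 and 8.05 on the mock arrays and 11.08, 11.15 and 11.19 on the IMQ arrays, and the mitotic checkpoint ligase Chfr read 9.15, 9.85 and 10.20 on the mock arrays and 12.93, 12.85 and 12.89 on the IMQ arrays. Their vanillin arrays read 8.84 and 11.06 on average, between the other groups. The comparisons of IMQ with mock and of vanillin with IMQ share the IMQ arrays, so those values are set side by side only. Each of the 20 remained called under every alternative tried that gave a value. They were chosen as the largest called rises, so this is no independent check. Of the 20, 16 were measured by 1 probe.

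**Figure D2:**
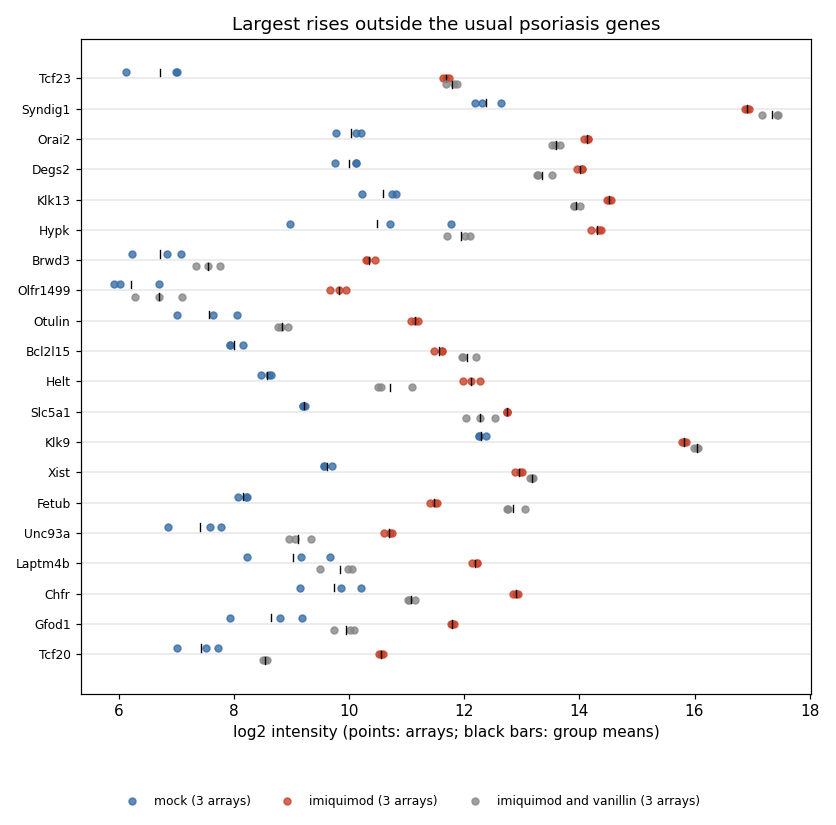
Log2 intensity (x axis) of the 20 genes with the largest rises outside the usual psoriasis genes (y axis), one point per array and black bars at group means. For Tcf23, Syndig1 and Xist the vanillin arrays sit with the IMQ arrays, while for Hypk, Brwd3 and Tcf20 they sit nearer the mock arrays.

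Sphingolipid and ceramide genes, which include makers of the lamellar lipids of the stratum corneum but also ceramide-degrading and signalling genes, were mostly called higher. Of 38 measured, 22 were called higher and 7 lower, with a median difference of 0.46 against -0.06 over all genes. Degs2, which makes phytoceramides, read 9.76, 10.12 and 10.11 on the mock arrays and 14.05, 13.96 and 14.04 on the IMQ arrays, a difference of 4.02 ± 0.12 (SE, adjusted p = 1.64e-07), or 16.2-fold. Its dimmer probe was called too, at 0.51. The related desaturase Degs1, of the main ceramide route, read 14.15, 14.16 and 14.05 on the mock arrays and 15.60, 15.59 and 15.56 on the IMQ arrays and rose by 1.47 ± 0.08. The IMQ arrays of both genes lay above all mock arrays, which for Degs2 the choice of the largest rises required. Neutral ceramidase Asah2 rose by 2.19 ± 0.08, neutral sphingomyelinase Smpd3 by 1.98 ± 0.08 and Cers3, the synthase of ultra-long-chain epidermal ceramides, by 1.53 ± 0.08. Elovl7, a fatty acid elongase picked after its value was seen, rose by 2.32 ± 0.20. Markers of spinous and granular keratinocytes moved with this list and with the epidermal transcription factors below: 6 of 10 were higher and 1 lower, and their summed linear intensity ran from 1128759 to 1209959 on mock arrays and from 1702693 to 1712473 on IMQ arrays. Their part in these lists was not tested.

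Genes of endoplasmic reticulum stress gave 15 higher and 4 lower calls out of 27, with a median difference of 0.34. Trib3, a pseudokinase induced in this response, read 10.91, 10.74 and 10.85 on the mock arrays and 12.83, 12.82 and 12.76 on the IMQ arrays, a difference of 1.97 ± 0.08 (SE, adjusted p = 1.03e-06). The degradation adaptors Sel1l and Herpud1 rose by 1.11 ± 0.08 and 0.86 ± 0.10, and the co-chaperone Dnajc3 by 0.70 ± 0.09. The disulfide isomerase Pdia4 went the other way, at -0.86 ± 0.09 (SE, adjusted p = 7.59e-05). Chosen after their values were seen, the chaperone Hspa5 (BiP) rose by 0.40 ± 0.13 and the death-related factor Ddit3 (CHOP) fell by 0.50 ± 0.09, so the list's members did not move as one.

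Epidermal transcription factors gave 20 higher and 8 lower calls out of 40 (median 0.20). Ppard, a lipid-sensing nuclear receptor, read 11.33, 11.51 and 11.71 on the mock arrays and 12.94, 13 and 12.93 on the IMQ arrays, a difference of 1.44 ± 0.11 (SE, adjusted p = 1.75e-05). The differentiation factors Klf4 and Grhl1 rose by 1.2 ± 0.11 and 1.34 ± 0.13, Pou2f3 by 1.41 ± 0.13 and the Ets factor Ehf by 1.12 ± 0.10. All of the IMQ arrays lay above all mock arrays for these 5 genes. Trp63, the p63 master regulator of basal cells, was called higher at 0.42 ± 0.12 on its brightest probe, but read -0.38 when its probes were averaged, so it has no settled direction here.

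Lists of lipid mediators were split. Eicosanoid genes gave 13 higher and 16 lower calls out of 38. The epidermal phospholipase Pla2g4e read 12.16, 12.01 and 11.88 on the mock arrays and 14.12, 14.14 and 14.16 on the IMQ arrays, a rise of 2.12 ± 0.09, and the barrier lipoxygenase Aloxe3 rose by 1.76 ± 0.08. Lta4h, the enzyme that makes leukotriene B4, read 11.86, 12.01 and 12.07 on the mock arrays and 10, 10.11 and 9.88 on the IMQ arrays, a fall of 1.99 ± 0.10 log2 units. The prostaglandin E2 receptor Ptger4 fell from 10.84 ± 0.17 to 8.80 ± 0.13 (SD), and the prostaglandin D2 synthase Ptgds from 14.52 ± 0.19 to 12.52 ± 0.03 (SD). Prostaglandin, leukotriene and lipoxygenase genes each went both ways. Chosen after their values were seen, the prostaglandin E synthase Ptges rose by 1.99 ± 0.13, the cyclooxygenase Ptgs1 by 1.25 ± 0.09 and the leukotriene B4 receptor Ltb4r1 by 0.88 ± 0.08, and the lipoxygenase Alox12e fell by 1.24 ± 0.10.

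Retinoid and vitamin D genes gave 5 higher and 15 lower calls out of 28 (median -0.34). Against that majority, Rbp2, a cellular retinol-binding protein, read 9.81, 10.03 and 10.07 on the mock arrays and 13.10, 13.05 and 13.08 on the IMQ arrays, a difference of 3.11 ± 0.10 (SE, adjusted p = 1.70e-07). Rdh11, a retinal reductase, was also higher (3.11 ± 0.31), with mock arrays spread from 8.79 to 10.22. The plasma carrier Rbp4 and its receptor Stra6 fell, at -0.97 ± 0.07 and -1.18 ± 0.13, and Rdh5 was at -0.96 ± 0.10.

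Proteases of coagulation and the cell surface gave 12 higher and 10 lower calls out of 33. The membrane serine protease Tmprss4 read 11.48, 11.72 and 11.96 on the mock arrays and 14.81, 14.81 and 14.81 on the IMQ arrays, a rise of 3.09 ± 0.12 (SE, adjusted p = 7.03e-07). Thrombomodulin, Thbd, which turns thrombin toward protein C, rose by 1.95 ± 0.10, while tissue plasminogen activator, Plat, fell from 13.58 ± 0.02 to 12.24 ± 0.02 (SD). Tmprss11a rose by 1.90 ± 0.14. Htra3, a secreted serine protease, read 13.65, 13.94 and 14.11 on the mock arrays and 2.80, 3.42 and 2.80 on the IMQ arrays. Its IMQ values lay below the 5th percentile of all probes, 5.49, so no fold is given.

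Gasdermin and cell death genes gave 9 higher and 9 lower calls out of 32, near the shares over all genes. Gsdma, a pore-forming gasdermin of differentiated keratinocytes, read 13.11, 13.17 and 13.19 on the mock arrays and 14.32, 14.35 and 14.28 on the IMQ arrays and rose by 1.16 ± 0.07, while Gsdma3 fell, at -1.59 ± 0.12 (SE, adjusted p = 1.89e-05). Gsdmc read 4.13, 3.50 and 4.68 on the mock arrays and 8.04, 8.21 and 7.94 on the IMQ arrays: the mock values lay below the 5th percentile of all probes, so it has levels but no fold. The inflammasome sensor Nlrp1a rose by 1.92 ± 0.11, and Bcl2, the survival factor, fell by 1.72 ± 0.12.

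Of 25 water and ion transport genes 9 were higher and 7 lower, a count of lower calls that dropped to 3 without IMQ replicate 1 and to 4 without IMQ replicate 2, IMQ replicate 3 or mock replicate 1. Aqp5, a water channel best known from glands, read 9.09, 8.29 and 9.22 on the mock arrays and 12.04, 11.98 and 11.97 on the IMQ arrays, a difference of 3.13 ± 0.21 (SE, adjusted p = 1.14e-05). Its IMQ arrays lay close together and above all mock arrays. Aqp9, which also carries glycerol, rose by 1.43 ± 0.10, and the keratinocyte channel regulator Clca2 by 1.31 ± 0.12.

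**Figure D3:**
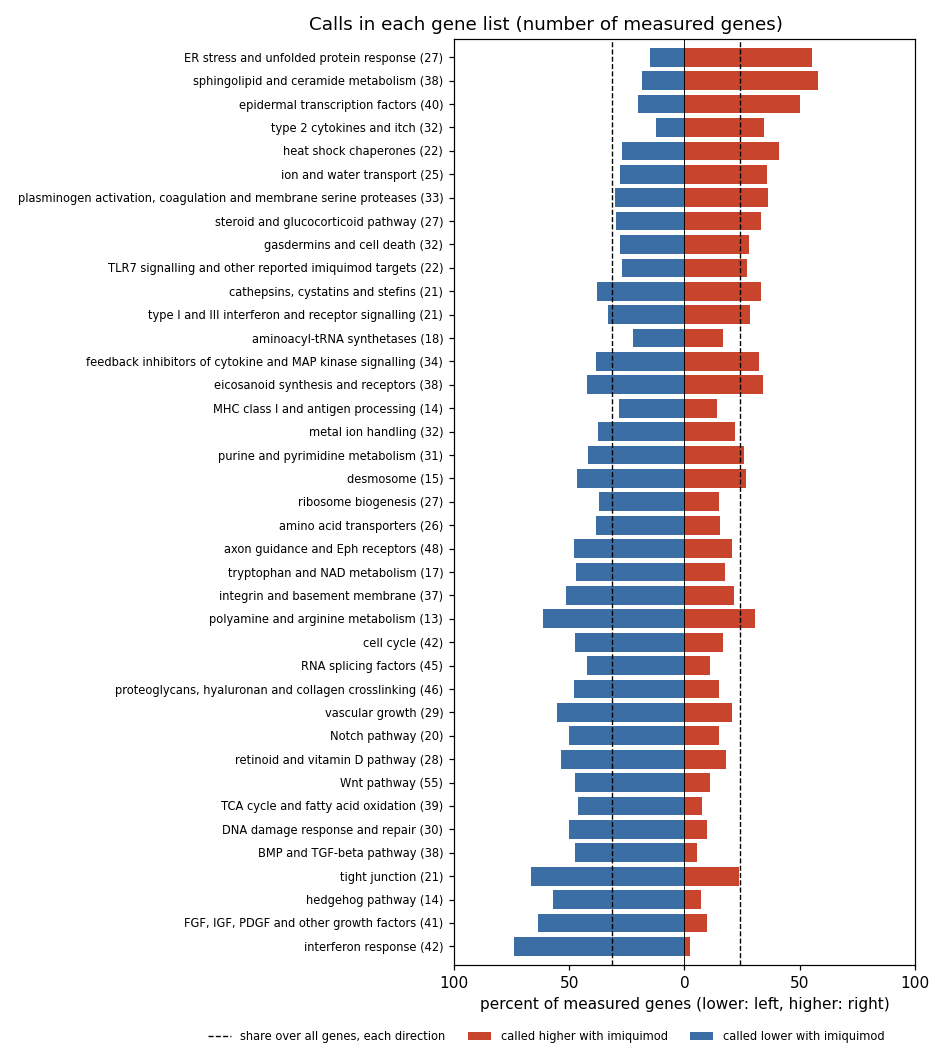
Share of each list's measured genes called higher (to the right) or lower (to the left) in IMQ skin, with the number measured in brackets and dashed lines at the shares over all genes, 24.3% and 31.6%. The sphingolipid, endoplasmic reticulum stress and epidermal factor lists reach farthest on the right, and the interferon response list reaches 73.8% on the left.

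The 20 largest falls, of 2.22 (Nae1) to 3.34 (Ifitm6), were chosen by the same rule as the rises, which ran from 3.14 (Tcf20) to 4.98 (Tcf23). The rule leaves out Htra3, given above, whose IMQ level lay below 5.49 and whose mock arrays read 13.65 to 14.11. The largest of the 20 was Ifitm6, of the interferon-induced transmembrane family expressed in myeloid cells, which read 11.77, 11.31 and 11.27 on the mock arrays and 8.15, 8.24 and 7.95 on the IMQ arrays, a difference of -3.34 ± 0.20 (SE, adjusted p = 6.21e-06). Mgl2, a galactose-binding lectin of dermal dendritic cells and macrophages, read 12.35, 12.50 and 12.78 on the mock arrays and 10.24, 10.22 and 10.18 on the IMQ arrays, a difference of -2.33 ± 0.13 (SE, adjusted p = 4.59e-06). Both genes had every IMQ array below every mock array, as the choice of genes requires. Cd209a, a further lectin of dermal dendritic cells, fell from 9.53 ± 0.10 to 6.98 ± 0.47 (SD). The marker lists of these cells gave more higher than lower calls. Conventional dendritic cell markers gave 5 higher and 2 lower of 12, with summed linear intensities of 87503 to 88667 in mock and 108125 to 114409 in IMQ skin. These calls were weak: 0 of the 12 were called at least 2-fold higher, and without IMQ replicate 1 or 3 the counts were 1 higher and 1 lower. Monocyte and macrophage markers gave 7 higher and 3 lower of 14. In bulk samples fewer cells of a type and less RNA per cell cannot be told apart. Paqr7, a membrane progesterone receptor, read 14.09, 14.07 and 14.09 on the mock arrays and 11.74, 11.74 and 11.65 on the IMQ arrays, with -2.37 ± 0.07 (SE, adjusted p = 1.70e-07). The neuronal cargo adaptor Clstn1 fell by 2.29 ± 0.15, Eogt, which adds O-GlcNAc to EGF domains, by 2.54 ± 0.12, the homeobox factor Hoxb4 by 2.31 ± 0.14 and Nae1, a subunit of the NEDD8-activating enzyme, by 2.22 ± 0.17. Rnf125, a ubiquitin ligase, fell by 2.40 ± 0.47 with the widest SE of the 20, 0.47. Each of the 20 falls was measured by 1 probe.

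**Figure D4:**
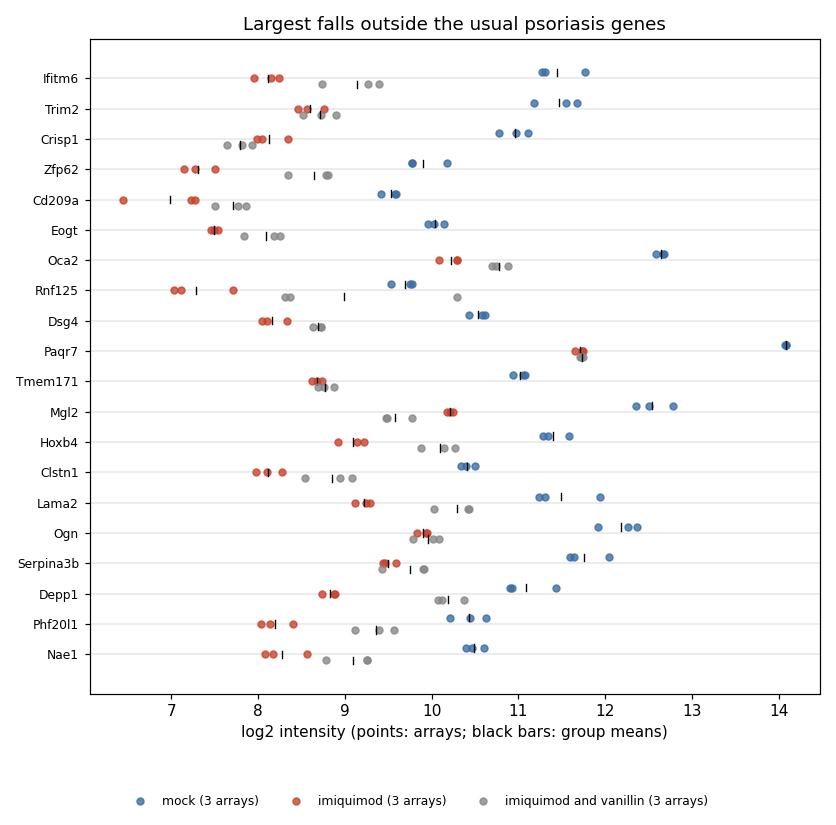
Log2 intensity (x axis) of the 20 genes with the largest falls outside the usual psoriasis genes (y axis), one point per array and black bars at group means. The IMQ arrays lie below the mock arrays in all 20, as the choice of genes requires. The vanillin arrays of Paqr7 and Ogn sit with IMQ, while those of Hoxb4 and Depp1 lie between the groups.

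Growth factor genes leaned to the lower side, with 4 higher and 26 lower calls out of 41 and a median difference of -0.58. Igfbp7, a secreted insulin-like growth factor binding protein of vessels and stroma, read 17.09, 16.65 and 16.49 on the mock arrays and 14.94, 14.95 and 14.86 on the IMQ arrays, a difference of -1.82 ± 0.15 (SE, adjusted p = 2.84e-05). Igfbp5 and Igfbp6 fell by 1.01 ± 0.08 and 1.06 ± 0.09, and Fgf5, which ends the growth phase of the hair cycle, read 11.83, 11.87 and 11.85 on the mock arrays and 10.04, 10.21 and 9.96 on the IMQ arrays and fell by 1.78 ± 0.10. Among the 4 higher was Bdnf, a neurotrophin, which read 8.64, 8.99 and 8.80 on the mock arrays and 10.80, 10.77 and 10.92 on the IMQ arrays, a rise of 2.02 ± 0.10 (SE, adjusted p = 3.26e-06).

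In developmental pathways of the skin and hair follicle most calls were lower. Wnt genes gave 6 higher and 26 lower calls out of 55 (median -0.15), and the higher count was 3 without IMQ replicate 3. The secreted inhibitor Sfrp1 read 15.31, 15.43 and 15.36 on the mock arrays and 13.98, 13.98 and 14.00 on the IMQ arrays, a difference of -1.37 ± 0.08 (SE, adjusted p = 4.42e-06). Nkd2 and Apcdd1, both inhibitors induced by Wnt, fell by 1.63 ± 0.11 and 1.31 ± 0.10, the receptor Fzd10 by 1.18 ± 0.11 and the nuclear factor Tcf7 by 1.10 ± 0.11. Hedgehog genes gave 1 higher and 8 lower calls out of 14 (median -0.45): the target and effector Gli1 fell by 1.02 ± 0.12 and the decoy Hhip by 1.23 ± 0.16, while the receptor Ptch1, also a target, was called higher at 0.58 ± 0.13. BMP and TGF-beta genes gave 2 higher and 18 lower calls out of 38. Bmp1, a procollagen protease, fell by 1.13 ± 0.08, Gdf10 by 1.51 ± 0.10 and the inhibitory Smad6 by 1.21 ± 0.12. Grem1, a secreted BMP antagonist, read 8.92, 9.06 and 9.12 on the mock arrays and 10.44, 10.38 and 10.39 on the IMQ arrays, a rise of 1.37 ± 0.10. Notch genes gave 3 higher and 10 lower calls out of 20 (median -0.43), and the ligands Jag2 and Dll1 were at -1.18 ± 0.14 and -0.64 ± 0.10 and the target Hes1 at -0.86 ± 0.12.

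Junction and matrix genes followed, with exceptions. Tight junction genes gave 5 higher and 14 lower calls out of 21 (median -0.63). Cldn3 read 12.82, 12.71 and 12.53 on the mock arrays and 11.22, 11.22 and 11.18 on the IMQ arrays, a difference of -1.48 ± 0.09 (SE, adjusted p = 9.13e-06), and Cldn8 fell by 1.88 ± 0.17. Cldn12 and the scaffold Tjp3 rose, at 1.98 ± 0.20 and 1.18 ± 0.11. Lsr, the angulin of tricellular junctions, read 3.06 ± 0.31 on its brightest probe and -1.50 on the other, so its direction depends on the probe. In the integrin and basement membrane list, 8 were higher, 19 lower and 10 not called of 37 (median -0.33). Lama2, the laminin chain of muscle and nerve basement membranes, read 11.94, 11.31 and 11.24 on the mock arrays and 9.29, 9.25 and 9.12 on the IMQ arrays and fell by 2.28 ± 0.19. Lama3, a chain of the epidermal laminin, fell by 1.55 ± 0.12 and Col4a2 by 1.13 ± 0.09, while the anchoring fibril collagen Col7a1 read 9.13, 9.67 and 9.73 on the mock arrays and 11.31, 11.30 and 11.29 on the IMQ arrays, a rise of 1.79 ± 0.16 (SE, adjusted p = 5.03e-05). Desmosome genes gave 4 higher and 7 lower calls out of 15: Dsg1a, of the upper epidermis, rose by 1.05 ± 0.14, and Dsc2 fell by 1.62 ± 0.10.

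Proteoglycan and crosslinking genes gave 7 higher and 22 lower calls out of 46 (median -0.35). The small leucine-rich proteoglycan Ogn read 11.91, 12.26 and 12.36 on the mock arrays and 9.95, 9.94 and 9.83 on the IMQ arrays, a fall of 2.27 ± 0.13, and Prelp fell by 1.49 ± 0.11. Tnc, tenascin C, often high in remodelling skin, fell from 13.28 ± 0.07 to 11.91 ± 0.08 (SD), and the hyaluronan receptor Cd44 rose by 1.57 ± 0.12. Vascular growth genes gave 6 higher and 16 lower calls out of 29 (median -0.36), with the lipoprotein lipase inhibitor Angptl4 at -2.10 ± 0.12 (SE, adjusted p = 4.75e-06) and Angptl1 at -2.13 ± 0.13. Axon guidance and Eph genes gave 10 higher and 23 lower calls out of 48. Epha1, an epidermal Eph receptor, read 12.74, 13.24 and 13.21 on the mock arrays and 11.03, 10.98 and 10.90 on the IMQ arrays, a fall of 2.10 ± 0.13, and netrin 4, Ntn4, fell by 2.04 ± 0.13. Sema4d, a semaphorin of lymphocytes, rose by 1.28 ± 0.12.

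Markers of the tissue's cell types moved beside these lists. Of 11 fibroblast markers 2 were higher and 8 lower, and their summed linear intensity ran from 375207 to 397921 on mock arrays and from 268469 to 270689 on IMQ arrays. Endothelial markers gave 0 higher and 7 lower calls out of 10, with sums of 39133 to 41921 and 25317 to 26354, and Cdh5, the endothelial cadherin, fell by 1.39 ± 0.09. For hair follicle stem cells 7 of 10 markers were lower and 1 higher (0 without IMQ replicate 3), the sums running from 202917 to 224832 in mock and from 149121 to 152689 in IMQ skin. For skeletal muscle 6 of 10 were lower and 1 higher (0 without IMQ replicate 2), with sums of 403588 to 451943 and 334447 to 342052. The adipocyte list had 9 of 15 lower and 1 higher, and sums of 403531 to 428894 and 287598 to 291670. All 7 melanocyte markers were lower, with sums of 170766 to 174935 and 73231 to 73612. Hair shaft markers gave 11 lower and 1 higher of 14, and Schwann cell and nerve markers 4 lower and 0 higher of 6, with sums of 33471 to 34624 and 17292 to 17739. None of these markers was listed at 0. The lowest mean level of any probe was 2.39, so this cannot show that a cell type was still present. The part of these cell types in the growth factor, pathway, matrix and vascular lists was not tested.

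Most calls in the tricarboxylic acid and fatty acid oxidation list were lower, with 3 higher and 18 lower calls out of 39 (median -0.24). Idh1, a cytosolic isocitrate dehydrogenase, read 13.80, 13.34 and 13.44 on the mock arrays and 11.53, 11.60 and 11.53 on the IMQ arrays, a difference of -1.97 ± 0.13 (SE, adjusted p = 1.06e-05). The pyruvate dehydrogenase kinase Pdk4 fell by 1.79 ± 0.15, the mitochondrial carrier Ucp3 by 1.71 ± 0.12 and the peroxisomal enzyme Ehhadh by 1.45 ± 0.13. Ppard, given above, is also in this list. The muscle and adipocyte marker sums, given above, were lower in IMQ skin too, and their part here was not tested.

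Polyamine and arginine genes gave 4 higher and 8 lower of 13, the lower count being 4 without IMQ replicate 1 or 3 and 5 without IMQ replicate 2 or mock replicate 2. Sat1, which starts polyamine breakdown, read 13.41, 13.20 and 13.54 on the mock arrays and 14.74, 14.72 and 14.69 on the IMQ arrays and rose by 1.33 ± 0.14, while Sat2 fell by 1.6 ± 0.16. Among amino acid transporters (4 higher, 10 lower, 12 not called of 26) Slc7a5, the large neutral amino acid carrier LAT1, read 9.96, 10.33 and 10.63 on the mock arrays and 12.68, 12.70 and 12.73 on the IMQ arrays, a difference of 2.39 ± 0.16 (SE, adjusted p = 1.23e-05). Slc43a1, a further carrier of such amino acids, fell by 1.75 ± 0.12 and the glutamine carrier Slc1a5 by 0.85 ± 0.12. In tryptophan and NAD metabolism (3 higher, 8 lower, 6 not called of 17) Ido2 fell by 1.44 ± 0.16 and Nmnat1 by 1.15 ± 0.16. Purine and pyrimidine genes gave 8 higher and 13 lower calls out of 31, with 5 higher without IMQ replicate 3. Nt5e (CD73), which makes adenosine outside the cell, fell from 13.72 ± 0.14 to 12.37 ± 0.05 (SD), and Cad, the enzyme that starts pyrimidine synthesis, fell by 1.06 ± 0.14.

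Metal ion genes gave 7 higher and 12 lower calls out of 32: the ferritin light chain Ftl1 fell by 0.96 ± 0.10, while Slc11a2, the iron transporter DMT1, read 11.41, 11.64 and 11.43 on the mock arrays and 12.75, 12.64 and 12.85 on the IMQ arrays and rose by 1.25 ± 0.13. Its IMQ arrays lay above all mock arrays. Cathepsin and cystatin genes gave 7 higher and 8 lower calls out of 21. Cathepsin S, Ctss, of antigen presentation, rose by 1.02 ± 0.09, and legumain, Lgmn, fell by 1.74 ± 0.15. Heat shock genes gave 9 higher and 6 lower calls out of 22, with 3 lower without mock replicate 2 or 3: the small heat shock protein Hspb8 rose by 1.28 ± 0.12 and Hspa2 fell by 1.42 ± 0.14. Among aminoacyl-tRNA synthetases 3 of 18 were higher and 4 lower, with Wars, for tryptophan, at -0.74 ± 0.10.

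Although imiquimod skin is known for a thickened epidermis, cell cycle genes gave 7 higher and 20 lower calls out of 42 (median -0.24). The higher count was 4 without mock replicate 2 or without any one of the IMQ arrays. Ccne1, the cyclin of entry into S phase, read 9.99, 10.19 and 10.16 on the mock arrays and 11.42, 11.42 and 11.59 on the IMQ arrays, a difference of 1.37 ± 0.09 (SE, adjusted p = 1.14e-05). Ube2c and Ccnb2, genes of mitosis, fell by 0.80 ± 0.10 and 0.99 ± 0.13, the replication gene Gins2 by 1.17 ± 0.13 and Ccnd1 by 0.67 ± 0.09. The proliferation marker Mki67, picked after its value was seen, fell by 0.57 ± 0.14. DNA repair genes gave 3 higher and 15 lower calls out of 30, the higher count being 6 without vanillin replicate 3. Xpc, which recognises helix-distorting lesions, fell by 1.18 ± 0.08, and Brca1 rose by 0.86 ± 0.11. Splicing factors gave 5 higher and 19 lower calls out of 45, with Clasrp and Clk4 at 2.70 ± 0.20 and 2.24 ± 0.22 and Snrnp70, of the U1 particle, at -1.0 ± 0.08. Ribosome biogenesis genes gave 4 higher, 10 lower (6 without IMQ replicate 3) and 13 not called of 27, and Gar1, of the box H/ACA particles, rose by 2.30 ± 0.24.

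The receptor of imiquimod itself moved little. Tlr7 read 8.65, 8.80 and 8.95 on the mock arrays and 8.53, 8.59 and 8.44 on the IMQ arrays, a difference of -0.28 ± 0.10 (SE, adjusted p = 0.0358). Every IMQ array lay below every mock array, but the call was lost in 9 alternatives, among them the fits without any single IMQ array, without mock replicate 2 or 3, with cyclic loess and with the replicate number as a block. Tlr8, the neighbouring receptor, read 0.02 ± 0.15 (SE, adjusted p = 0.937) with overlapping arrays, and Tlr9 read 0.28 ± 0.24 (SE, adjusted p = 0.369). Over the list of toll-like receptor 7 signalling and other reported targets, 6 were higher, 6 lower and 10 not called of 22, near the shares over all genes, and 3 were lower without IMQ replicate 1 or 3.

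Downstream of the receptor the members moved in both directions. The kinase Irak2 read 11.06, 11.13 and 11.18 on the mock arrays and 12.25, 12.22 and 12.33 on the IMQ arrays, a rise of 1.14 ± 0.10 (SE, adjusted p = 4.31e-05), and the ubiquitin ligase Traf6 read 12.60, 12.76 and 13.02 on the mock arrays and 14.03, 13.98 and 14.03 on the IMQ arrays, a rise of 1.21 ± 0.11 (SE, adjusted p = 4.74e-05). Irak3, an inhibitory member of the same kinase family, rose by 0.93 ± 0.09, and the kinase Ikbke by 0.77 ± 0.08. Hsp90b1, the chaperone that folds toll-like receptors, rose by 0.96 ± 0.13. Irf7, the factor that turns this signal into type I interferon, read 13.01, 12.79 and 12.64 on the mock arrays and 11.70, 11.68 and 11.68 on the IMQ arrays, a fall of 1.13 ± 0.12. Unc93b1, which carries the receptor to endosomes, fell by 0.95 ± 0.10, Tbk1 by 0.39 ± 0.09 and Irak1 by 0.54 ± 0.16. Casp1 was called at 0.38 ± 0.13 (SE, adjusted p = 0.0338) and Slc15a4 at -0.36 ± 0.13 (SE, adjusted p = 0.0374), and these calls were lost in 8 and 9 alternatives. The quinone reductase Nqo2, reported as an imiquimod target apart from the receptor, was bright and read -0.04 ± 0.07 (SE, adjusted p = 0.663). Nqo1 read 0.05 ± 0.09 (SE, adjusted p = 0.657) and the adenosine receptor Adora3 -0.21 ± 0.11 (SE, adjusted p = 0.127). Traf3 at -0.03 ± 0.11, Slc15a3 at 0.06 ± 0.14, Irf5 at -0.16 ± 0.11, Irf8 at -0.32 ± 0.13 and Nlrp3 at 0.57 ± 0.40 were not called.

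**Figure D5:**
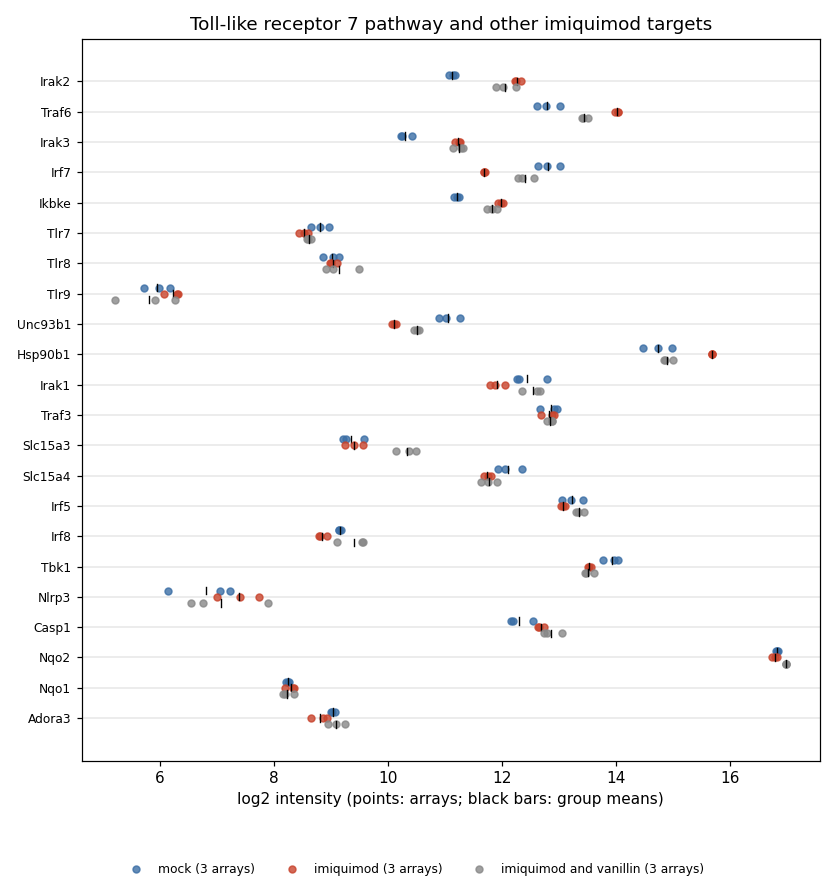
Log2 intensity (x axis) of the 22 measured genes of toll-like receptor 7 signalling and other reported imiquimod targets (y axis), one point per array and black bars at group means. Irak2, Traf6 and Irak3 have all IMQ arrays above mock, Irf7 and Unc93b1 have them below, and Tlr7 has them below by 0.28 ± 0.10.

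Interferon response genes were lower in larger share than any other of the 39 gene lists: 31 of 42 were called lower and 1 higher, with a median difference of -0.76. Ifi44l read 8.78, 8.62 and 8.68 on the mock arrays and 7.16, 7.35 and 7.03 on the IMQ arrays, a difference of -1.51 ± 0.10 (SE, adjusted p = 1.19e-05), and Usp18, which switches off interferon receptors and removes ISG15 from proteins, fell by 1.30 ± 0.15. In the list of interferons and their receptors 6 were higher, 7 lower and 8 not called of 21. Jak2 read 11.24, 11.34 and 11.30 on the mock arrays and 9.98, 10.04 and 9.84 on the IMQ arrays, a fall of 1.34 ± 0.09, and Jak1 rose by 0.94 ± 0.13. Ifngr1 fell by 0.90 ± 0.13. The receptor chain Ifnar1 was called higher at 0.81 ± 0.09 on its brightest probe but read -0.12 with its probes averaged. Among class I antigen genes 2 were higher, 4 lower and 8 not called of 14, with 1 higher without any one of the IMQ arrays: Nlrc5, their transactivator, fell by 0.61 ± 0.09, Cd1d1, which presents lipids, by 1.42 ± 0.11, and the immunoproteasome subunit Psmb9 rose by 0.46 ± 0.10.

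Promoters were read for the interferon response genes to show what their upstream DNA holds. The motif GAAA, any 2 bases, GAAA, a core of the interferon response element read on both strands and allowing overlaps, was found in 16 of 29 listed promoters (55.2%) and in 3.0% of all 13980 measured genes with a promoter, over 250 bases before to 50 after the start. Of the 16 with a match 11 were called lower, 0 higher and 5 not called. Of the 13 without one 10 were lower, 1 higher and 2 not called, so calls were lower with and without the letters. The stretches below, from RefSeq on GRCm38.p6, lie upstream of the start in the direction of transcription, with matches in capitals. Isg15 (chr4:156200847-156200936, minus strand), Gbp3 (chr3:142559959-142560043, plus), Igtp (chr11:58199482-58199555, plus) and Irgm2 (chr11:58214873-58214962, plus) were called lower, and Rsad2 (chr12:26456523-26456612, minus) and Oas3 (chr5:120777685-120777774, minus) were not called. All but Isg15 and Gbp3 were chosen after their values were seen, to show both kinds of call.
Isg15: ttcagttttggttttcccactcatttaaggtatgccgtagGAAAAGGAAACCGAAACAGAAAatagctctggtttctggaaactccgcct
Gbp3: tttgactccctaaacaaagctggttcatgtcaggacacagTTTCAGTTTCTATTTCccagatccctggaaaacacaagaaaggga
Igtp: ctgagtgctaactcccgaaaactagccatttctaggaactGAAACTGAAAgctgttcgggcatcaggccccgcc
Irgm2: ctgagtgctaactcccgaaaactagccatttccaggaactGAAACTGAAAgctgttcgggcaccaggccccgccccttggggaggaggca
Rsad2: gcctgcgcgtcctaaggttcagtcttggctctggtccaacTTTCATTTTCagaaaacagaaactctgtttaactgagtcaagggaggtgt
Oas3: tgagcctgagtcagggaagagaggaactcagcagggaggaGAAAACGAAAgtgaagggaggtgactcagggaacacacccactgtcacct
Isg15 carries 3 overlapping matches and Gbp3 carries 2, and the others 1 each. The 2 immunity-related GTPase genes Igtp and Irgm2, both on chromosome 11, were at -1.07 ± 0.15 and -0.94 ± 0.12. The ubiquitin-like modifier Isg15 read 11.81, 11.85 and 11.86 on the mock arrays and 10.84, 10.84 and 10.77 on the IMQ arrays, a difference of -1.03 ± 0.08 (SE, adjusted p = 2.41e-05), and the guanylate-binding protein Gbp3 read 10.22, 10.04 and 10.15 on the mock arrays and 9.05, 9.03 and 8.87 on the IMQ arrays, a fall of 1.15 ± 0.09. With a match of the same kind, the antiviral enzyme Rsad2 was at -0.05 ± 0.09 (adjusted p = 0.672) and the synthetase Oas3 at 0.10 ± 0.10 (adjusted p = 0.403).

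Promoters of the genes with the larger changes were read for 5 more motifs, with no test. The AP-1 motif TGANTCA stood in 9.61% of 968 promoters of genes at least 2-fold higher, in 6.01% of 865 at least 2-fold lower and in 6.48% of all. The interferon motif stood in 2.69% and 2.43% of the same promoters, and the E-box CACGTG in 8.06% and 8.55% beside 8.76% of all. The other motifs stood in few promoters. The NF-kB form with GGGA, any base and TTTCC stood in 7 of the higher (0.723%), 3 of the lower (0.347%) and 59 of all promoters (0.422%). For the C/EBP form TTGCGCAA these were 6 (0.620%), 5 (0.578%) and 37 (0.265%). For the p63-like form with CATG, any 6 bases and CATG they were 9 (0.930%), 1 (0.116%) and 57 (0.408%). All were read on both strands. These are letters in a window and no evidence that a factor binds.

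Feedback inhibitors of cytokine signalling gave 11 higher and 13 lower calls out of 34. Tollip, which restrains toll-like receptor signals, read 13.64, 13.78 and 13.86 on the mock arrays and 14.63, 14.69 and 14.62 on the IMQ arrays and rose by 0.89 ± 0.09. The RNase Zc3h12a (regnase-1) rose by 0.84 ± 0.09, while Sigirr, an inhibitory receptor of the IL-1 family, fell by 1.04 ± 0.12 and Spred1 by 1.10 ± 0.12. For type 2 cytokines and itch the counts were 11 higher and 4 lower calls out of 32 (median 0.01). The alarmin Il33 read 10.82, 10.32 and 10.24 on the mock arrays and 12.36, 12.44 and 12.37 on the IMQ arrays, a difference of 1.93 ± 0.15 (SE, adjusted p = 2.36e-05), and the chemokine Ccl22 rose by 1.08 ± 0.12. Ccl11, eotaxin, fell by 1.46 ± 0.11. Mrgprb2, the mast cell receptor for cationic compounds, read 9.27, 8.98 and 9.0 on the mock arrays and 7.30, 7.18 and 7.27 on the IMQ arrays, a difference of -1.83 ± 0.11 (SE, adjusted p = 6.21e-06), and 4 of 10 mast cell markers were lower, 1 higher (3 without vanillin replicate 3) and 5 not called, with Cma1, a chymase, at -1.28 ± 0.13. Steroid pathway genes gave 9 higher and 8 lower calls out of 27: Hsd17b7 and Sult2b1, of cholesterol synthesis and cholesterol sulfation, rose by 1.01 ± 0.08 and 1.06 ± 0.10, and Per1, a clock gene induced by glucocorticoids, fell by 1.17 ± 0.11.

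T cell markers gave 9 higher and 0 lower calls out of 12, with sums of 14034 to 14589 in mock and 18359 to 18717 in IMQ skin, and the costimulatory receptor Cd28 rose by 1.53 ± 0.18. In the monocyte and macrophage list 7 were higher, 3 lower and 4 not called of 14, with Adgre1 (F4/80) at 9.46, 9.54 and 9.73 on the mock arrays and 11.61, 11.60 and 11.61 on the IMQ arrays and a rise of 2.03 ± 0.09 (SE, adjusted p = 1.67e-06). Itgam rose by 1.38 ± 0.08, whereas Fcgr1 fell by 1.33 ± 0.17. Neutrophil markers gave 5 higher and 4 lower calls out of 16: the chemokine receptor Cxcr2 rose by 2.18 ± 0.14 and Clec4d by 1.74 ± 0.13, but the granule genes Camp and Ngp fell by 0.71 ± 0.08 and 0.68 ± 0.12. The summed intensity of the neutrophil list ran from 25899 to 29468 in mock and from 143848 to 147296 in IMQ skin, and the list holds S100a9, which keratinocytes also make and which rose by 5.54, while its partner S100a8 was at -0.06 and not called. Of 5 gamma delta T cell markers 3 were higher and 1 lower, with Cd163l1 (SCART1) at 1.24 ± 0.11. Plasmacytoid dendritic cells are the classic source of interferon after imiquimod, and their markers gave 3 higher and 3 lower calls out of 11. Only 1 was lower without mock replicate 2 or any one IMQ array, and 1 was higher without IMQ replicate 1 or 3 or mock replicate 1 or 3. Their summed intensity ran from 20838 to 22989 in mock and from 20264 to 20586 in IMQ skin. The conventional dendritic cell list had 5 higher and 2 lower of 12, but 1 higher without IMQ replicate 1 or 3, 2 without IMQ replicate 2 and 3 without mock replicate 2 or 3. Its lower count was 1 without IMQ replicate 1 or 3 or mock replicate 1 or 3.

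Of 12 sebaceous gland markers 4 were higher and 4 lower. The melanocortin receptor Mc5r fell by 1.43 ± 0.10 and Awat2, which makes wax esters, by 1.28 ± 0.10, while the elongase Elovl3 rose by 0.84 ± 0.11. Natural killer markers gave 3 higher and 3 lower calls out of 8, with perforin, Prf1, at -0.98 ± 0.15 and Gzma at 0.65 ± 0.14. Among Langerhans cell markers 2 of 4 were higher and Cd1d1 was lower, and the defining lectin Cd207 read -0.36 ± 0.15 (SE, adjusted p = 0.0748). The 2 higher were Epcam and Cd24a, which epithelial cells also express.

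Symbol families of at least 15 genes (128 families) held 0 with a majority called higher and 7 with a majority called lower. Tetraspanins stood first on the lower side, with 12 of 19 Tspan genes lower and 1 higher. Tspan10, Tspan12 and Tspan6 fell by 1.48 ± 0.08, 1.49 ± 0.10 and 1.45 ± 0.12. Aldehyde dehydrogenases gave 10 lower and 4 higher of 19, among them Aldh4a1, of proline breakdown, which rose by 2.79 ± 0.21, and Aldh7a1, which fell by 1.17 ± 0.10. The Rad family gave 10 lower of 18. On the higher side stood the clade B serpins, with 10 higher and 7 lower of 20, Serpinb3d and Serpinb12 counted. The Stk kinase genes gave 10 higher and 4 lower of 21. The secretory Sec genes gave 12 higher and 7 lower of 28, but their median difference was -0.01. Sec61a1, the channel of the endoplasmic reticulum, read 12.70, 13.08 and 13.42 on the mock arrays and 14.76, 14.76 and 14.78 on the IMQ arrays and rose by 1.70 ± 0.16.

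Several dim families, though not all, leaned to the higher side. Odorant receptors, picked after their counts were seen, gave 169 higher and 36 lower calls out of 529 Olfr genes (31.9% higher, 6.81% lower), with a median difference of 0.29 and a median intensity percentile of 20.4. Lower calls were likewise few for prolactin-family genes (7 higher and 0 lower of 16, percentile 19.2), vomeronasal receptors (13 and 4 of 46, percentile 26.7), taste receptors (10 and 3 of 35, percentile 25.3) and protocadherin beta genes (7 and 0 of 20, percentile 30.6). Other dim families leaned less or not at all. The microRNA genes (Mir) gave 45 higher and 30 lower of 205, with a median of 0.04 at percentile 15.3. The Spata genes gave 8 and 7 of 29 (percentile 31.5), and the Ces genes 3 and 5 of 15 (percentile 30.9). Over the 2642 probes of any name with mean levels of 6.06 to 6.92, 20.6% were higher and 21.3% lower. At levels of 6.92 to 7.70 these shares were 24.2% and 25.5%, and at 7.70 to 8.47 they were 25.9% and 29.5%. Beside the latter 2 classes, vomeronasal and taste receptors, at 28.3% and 28.6% higher, stood out little. Their lower shares, 8.70% and 8.57%, were below those of the classes. What the low signal of these probes stands for was not tested.

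Genes called in one direction also lay side by side among the measured genes, in the RefSeq order of GRCm38.p6. Genes without a measurement were skipped, so members of a run need not be direct neighbours in the genome. With 24.3% of all genes called higher and 31.6% lower, some runs arise among the 17708 placed genes whatever their position. Whether any run was longer than that was not tested. The longest runs of higher calls were the 17 genes from Ivl to Lce3f and the 8 from Sprr2d to Sprr1b, both on chromosome 3 in the epidermal differentiation complex. Next came 7 genes from Kdsr to Serpinb11 on chromosome 1, with a median difference of 0.94, where Kdsr, of sphingolipid synthesis, and Vps4b, of membrane scission, rose by 0.68 ± 0.14 and 0.62 ± 0.11 beside the serpins. A run on chromosome 7 held 6 genes, with Prkcb, a protein kinase C, at 1.66 ± 0.23. Its member Rbbp6 turned to -0.13 with its probes averaged. The longest run of lower calls was 10 genes from Pithd1 to Luzp1 on chromosome 4 (median -0.51), with Pithd1 at -1.52 ± 0.16, Hnrnpr at -1.11 ± 0.13 and the BMP target Id3 at -0.74 ± 0.16. Runs of 9 genes on chromosome 2, with Odf2, and of 7 on chromosomes 7 and 11 followed, and a further one of 6 on chromosome 2 held Slc38a11. These runs rest on some weak calls: those of Slc38a11, Odf2 and Zfp46 were lost in 16, 13 and 12 alternatives, those of Tmub2 and Ubtf (chromosome 11) and Cacng3 (the higher run on chromosome 7) in 9 each, and that of 4930413G21Rik, beside Cacng3, in 8. Gle1 on chromosome 2 and Pidd1 and Cracr2b in the lower run on chromosome 7 lost theirs in 6 each.

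Probes of one gene did not always agree. Of 2278 genes with several probes, 450 had all of them called in one direction, 1105 had some called in one direction, 425 had none called and 298 had probes called in opposite directions. Aimp2, a scaffold of the tRNA synthetase complex, read 1.92 on the brighter probe and -1.55 on the dimmer one, and Lrrfip1 -1.02 and 2.28. The cause was not tested. Klk9 was called higher by both probes, at 3.52 and 4.80.

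A few genes set aside for a group mean below 5.49 have levels only. Nhs read 7.92, 8.11 and 7.91 on the mock arrays and 4.96, 5.14 and 4.79 on the IMQ arrays. Ikzf2, the lymphocyte factor Helios, read 4.87, 5.70 and 5.81 on the mock arrays and 7.95, 8.10 and 7.85 on the IMQ arrays. Slc13a2os, a noncoding transcript, read 3.47, 6.17 and 5.89 on the mock arrays and 7.87, 7.53 and 7.89 on the IMQ arrays; its lowest mock array, replicate 1, lay well below the others. In all of them the arrays of the groups did not overlap.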

How the data were processed

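Each array measured Cy5-labelled total RNA in a single channel, per the labels. The deposited table held one linear intensity per probe and array, equalised between arrays by the authors, who name limma in their processing notes. Here values under 1 were set to 1 and taken to log2. limma 3.58.1 in R 4.3.3 fitted a mean for each of 3 groups over 9 arrays (lmFit and eBayes, two-sided). The number of arrays limits the precision.

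Probes were named from the platform table and 2126 older symbols updated. Members and lists were chosen with earlier results of these data known. Genes were named by a written rule: the 20 largest called, non-overlapping rises and falls outside the usual psoriasis symbols, with the brighter group at or above the all-probe median of 9.30 and the dimmer at or above the 5th percentile of 5.49, predicted genes left out; up to 5 members of each list with the smallest p, all receptor pathway members, leading families, runs of neighbours and disagreeing probes. Others are said to be chosen after their values were seen. Same-numbered mock and IMQ arrays deviated together with correlations of 0.0183 to 0.1061 and were not treated as pairs.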

Additional observations from a re-analysis of the deposited data

How the results depend on the processing

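Over 24 alternatives, 40 of the 40 largest rises and falls kept their call wherever a value was given, as did 417 of 500 named genes. The 40 were chosen as the largest called changes, so their share is no independent check. Over 11848 gene values, 279 lost the call, 30 gained one and 8 reversed. The main counts were 14157 probes called, 6330 higher and 7827 lower, 1864 and 1702 of them at least 2-fold. With genes as the unit, 1166 were at least 2-fold higher and 1095 lower. With the dimmest 50 percent of probes left out, 8593 were called, 3751 higher and 4842 lower, 1055 and 847 at least 2-fold. An offset of 64 gave 1130 at least 2-fold lower. Tested against a fold of 1.2 (treat), 8517 were called, 3780 higher and 4737 lower. Without one array, 11551 to 15901 were called, 5039 to 7438 higher and 6512 to 8463 lower, 1718 to 1970 at least 2-fold higher and 1553 to 1914 lower. With the replicate number as a block, 13609 were called, 6076 higher and 7533 lower. Weighting the arrays by quality in limma gave the most calls, 19830, with 9070 higher and 10760 lower. Its weights were unequal: 0.178 for vanillin replicate 3 and 0.22 for mock replicate 1, but 10.3 for IMQ replicate 1. Cyclic loess moved the all-probe median from -0.04 to 0.01 and gave 6980 higher and 7211 lower. The 8 reversals came with averaged probes: Ifnar1 -0.12, Trp63 -0.38, Cox6a2 0.29, Cd200r3 -0.12, Rbbp6 -0.13, Sptan1 0.056, D630039A03Rik -0.10 and Lrrfip1 0.63. The deposited table gives no background signal, so detection above background was not analysed here.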
